A study of Homo sapiens with 6 samples.

Results

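The genes described here are the hypoxia-inducible factors (HIF), the proteins that control them and a set of genes known as HIF targets. They were found by gene name in a deposited table of counts per gene: 32 names were sought and 32 were found, among 58735 genes in all. RNA was sequenced from 6 libraries of Panc-1, an established human epithelial line from a pancreatic carcinoma, genotype WT per the labels. The cells of 3 libraries came from 72 h of co-culture with CAF, cancer-associated fibroblasts, that overexpressed PAI-1, a secreted protease inhibitor. The other 3 came from 72 h with CAF lacking that overexpression, which the column headings call CAF-NC. The sources used here give neither the origin of the CAF nor the construct, the oxygen level or any way of separating the cell types, so the measurements describe whatever cells entered the RNA. In bulk RNA, fewer cells of a type and less RNA per cell cannot be told apart.

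HIF is a pair of proteins: an alpha subunit, HIF1A or EPAS1 (HIF-2 alpha), joined to ARNT. When oxygen is present, the prolyl hydroxylases EGLN1, EGLN2 and EGLN3 mark the alpha subunit, VHL binds the marked form and it is broken down, while the asparaginyl hydroxylase HIF1AN keeps it from its coactivators. The alpha subunit is therefore controlled to a large degree at the protein level, which RNA counts do not measure. When the alpha subunit is stable, the pair binds a short core, ACGTG or GCGTG, near genes of glucose use, pH control, blood vessel growth, mitochondrial turnover and collagen processing, and several of these genes respond to other signals as well.

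The libraries held 13628508 to 16006880 counts each, and 3 counts come to 0.187 to 0.220 CPM, the usual scaling of counts to the library total. Levels below are CPM after TMM scaling, and changes are log2 fold changes of co-culture with CAF overexpressing PAI-1 over co-culture with CAF. A gene is said to rise or fall where edgeR's quasi-likelihood test gave a Benjamini-Hochberg adjusted p under 0.05 over the 14960 genes tested. The 6 epithelial keratin and adhesion markers summed to 2046 to 2308 CPM with CAF overexpressing PAI-1 and 1781 to 1891 CPM with CAF. The adhesion genes among them were low: CDH1 averaged 1.01 ± 0.330 CPM with CAF overexpressing PAI-1 and 1.67 ± 0.212 CPM with CAF, and EPCAM 8.10 ± 1.36 CPM with CAF overexpressing PAI-1 and 7.06 ± 0.456 CPM with CAF (SD, n = 3 each). Neither was called. The 4 keratins rose, with log2 fold changes from 0.17 for KRT8 to 0.61 for KRT7, where 17.2% of all tested genes rose. Fibroblast markers are given with the collagen-modifying enzymes. PAI-1 replicate 2 stood apart from the other libraries of its group, with 3.78% of its counts from mitochondrial genes, against 5.12% and 4.76% in replicates 1 and 3, and counts of called genes are also given without it. The share was 5.53%, 5.81% and 5.92% in the CAF libraries, all above the libraries with CAF overexpressing PAI-1, and its part in the results was not tested.

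Of the 32 HIF genes, 31 passed the filter on low counts and were tested, and the levels of the remaining one, CA12, are given with the pH genes. There were 14 that rose (45.2% of those tested, where 17.2% of all tested genes rose), 5 that fell (16.1%, where 15% of all tested genes fell) and 12 that were not called. The shares over all tested genes are not matched to the level of the members, 25 of which averaged at least 10 CPM in both groups. The spread within a group was small, with a median coefficient of variation over the members of 6.49% with CAF overexpressing PAI-1 and 6.67% with CAF. The median log2 fold change of the 31 was 0.16, beside -0.0015 over all tested genes. Changes were small: the largest rise was 1.89-fold and the largest fall took a gene to 0.671 of its level with CAF. A change of at least 1.5-fold was called for 4 of the 31, all of them rises, and for 8.41% of all tested genes in either direction. The groups did not overlap for 21 of the 31 (67.7%), against 43.4% of all tested genes. Of these 21, 14 were higher (22.3% of all tested genes were) and 7 lower (21.1% of all tested genes). Without PAI-1 replicate 2, 15 members were called higher and 5 lower, beside 2446 higher and 2227 lower over all tested genes. Scaling by library size alone gave 13 members called higher and 8 lower, and 1839 higher and 3182 lower over all genes in place of 2571 and 2239.

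**Figure D1:**
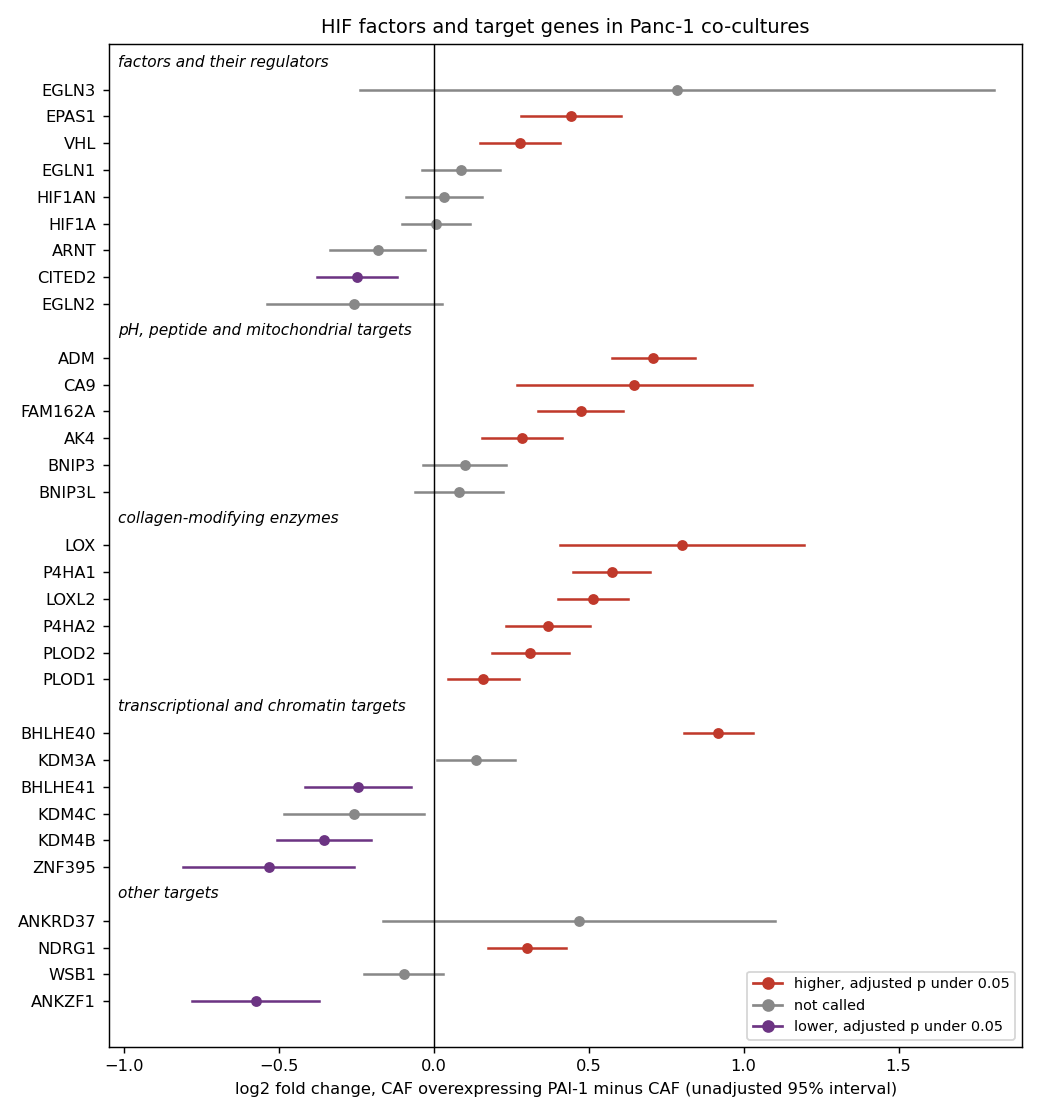
Log2 fold change of each of the 31 tested HIF genes (CAF overexpressing PAI-1 minus CAF, x axis) with its unadjusted 95% interval, grouped by role. All 6 collagen-modifying enzymes lie to the right of 0, while the transcriptional and chromatin genes run from -0.53 for ZNF395 to 0.92 for BHLHE40.

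The cores that HIF binds were counted in the promoters of these genes. RefSeq promoter windows of GRCh38.p14, 250 bases before to 50 after a gene's start, were at hand for 26 of the 32 genes, and not for VHL, BNIP3L, LOXL2, ZNF395, NDRG1 and ANKZF1. Where a gene had several windows, the first listed was used. The core ACGTG, on either strand, was in 16 of the 26 windows (61.5%), beside 26.8% of the windows of 10392 tested genes matched by symbol. The core GCGTG was in 13 (50%), beside 51.2%. The E-box CACGTG, which holds ACGTG on both strands and is also bound by BHLHE40, BHLHE41 and MYC, was in 10 (38.5%), beside 10.1%. Among genes that rose, ACGTG was in 7 of 11 windows and CACGTG in 2, among those that fell both were in 3 of 3, and among those not called ACGTG was in 6 of 11 and CACGTG in 5. The remaining window, of CA12, holds neither. These matches describe letters in a window and show no binding.

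The windows of 4 genes that rose and 2 that fell are shown because they hold the core in different surroundings. Sequences run 5′ to 3′ on the gene's strand, and capitals mark ACGTG or its reverse complement CACGT.
BHLHE40 (chr3:4979187-4979486, plus strand): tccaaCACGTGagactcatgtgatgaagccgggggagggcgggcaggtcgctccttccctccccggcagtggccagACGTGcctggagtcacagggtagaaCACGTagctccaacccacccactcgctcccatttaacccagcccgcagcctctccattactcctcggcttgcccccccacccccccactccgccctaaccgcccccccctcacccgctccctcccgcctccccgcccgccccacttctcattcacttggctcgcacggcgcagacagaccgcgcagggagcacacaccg
LOX (chr5:122078210-122078509, minus strand): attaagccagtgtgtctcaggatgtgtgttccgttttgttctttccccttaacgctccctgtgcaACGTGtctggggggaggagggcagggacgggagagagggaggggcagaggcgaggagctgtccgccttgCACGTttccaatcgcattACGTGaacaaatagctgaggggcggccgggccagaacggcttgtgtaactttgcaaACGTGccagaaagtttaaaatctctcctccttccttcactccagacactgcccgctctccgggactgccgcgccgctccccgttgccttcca
CA9 (chr9:35673678-35673977, plus strand): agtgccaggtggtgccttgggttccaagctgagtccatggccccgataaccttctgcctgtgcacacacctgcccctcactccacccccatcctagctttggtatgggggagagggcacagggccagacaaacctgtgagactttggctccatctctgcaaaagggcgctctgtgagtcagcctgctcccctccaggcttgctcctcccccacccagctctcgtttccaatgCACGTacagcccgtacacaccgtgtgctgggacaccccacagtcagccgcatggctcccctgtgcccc
P4HA1 (chr10:73096817-73097116, minus strand): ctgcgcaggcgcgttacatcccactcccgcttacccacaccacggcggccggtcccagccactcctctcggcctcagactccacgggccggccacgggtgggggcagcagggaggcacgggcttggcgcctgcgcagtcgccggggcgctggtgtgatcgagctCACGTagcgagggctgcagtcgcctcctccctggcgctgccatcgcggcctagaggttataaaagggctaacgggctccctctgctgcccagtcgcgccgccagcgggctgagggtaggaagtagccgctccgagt
KDM4B (chr19:4968863-4969162, plus strand): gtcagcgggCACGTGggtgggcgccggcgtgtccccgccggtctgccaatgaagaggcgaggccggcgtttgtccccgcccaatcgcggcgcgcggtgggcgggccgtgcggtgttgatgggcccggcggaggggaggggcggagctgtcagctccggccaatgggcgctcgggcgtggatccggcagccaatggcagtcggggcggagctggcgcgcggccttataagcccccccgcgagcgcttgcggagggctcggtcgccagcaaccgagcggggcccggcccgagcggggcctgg
BHLHE41 (chr12:26124988-26125287, minus strand): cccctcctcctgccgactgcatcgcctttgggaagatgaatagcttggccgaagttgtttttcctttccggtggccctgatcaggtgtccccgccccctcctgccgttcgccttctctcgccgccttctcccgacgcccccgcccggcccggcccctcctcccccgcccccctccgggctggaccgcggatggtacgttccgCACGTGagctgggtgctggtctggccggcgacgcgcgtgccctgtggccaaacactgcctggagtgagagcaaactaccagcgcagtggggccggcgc
In BHLHE40 the capitals begin at -245, where the letters are the E-box, and at -174 and -149 relative to the start. In LOX there are 4 separate stretches of ACGTG, at -185, -116, -98 and -42, and none is an E-box. CA9 has ACGTG once, at -18, and P4HA1 once, at -86. The windows of KDM4B and BHLHE41, which fell, have ACGTG only within an E-box, at -241 and -48, and both also hold GCGTG, which is not in capitals.

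Among the factors themselves, EPAS1 rose and HIF1A was not called. EPAS1 (ENSG00000116016, GRCh38 chromosome 2, 46293667 to 46386703, plus strand) had 67.2, 54.5 and 62.3 CPM with CAF overexpressing PAI-1, against 40.7, 47.8 and 47 CPM with CAF. All libraries with CAF overexpressing PAI-1 lay above all with CAF, and EPAS1 rose by 0.44 on the log2 scale (SE 0.0795, adjusted p = 4.57e-05). HIF1A had 190.1, 179 and 183 CPM with CAF overexpressing PAI-1, against 179, 183 and 187 CPM with CAF. The groups overlapped throughout, and the 95% interval of its log2 fold change, -0.10 to 0.12, leaves room for only a small difference in RNA level. ARNT, the shared partner, had 45, 40.2 and 44.2 CPM with CAF overexpressing PAI-1 and 52.2, 46.3 and 48.3 CPM with CAF. Its groups did not overlap, yet its log2 fold change of -0.18 did not pass (adjusted p = 0.0629), and it passed without PAI-1 replicate 1 (0.0473, in a range of 0.0473 to 0.273 over the libraries left out). With the replicate number as a block ARNT had an adjusted p of 0.0457. Per kilobase of exon, HIF1A stood at 35.7 ± 1.12 CPM with CAF overexpressing PAI-1 and 35.6 ± 0.787 CPM with CAF (SD, n = 3 each). EPAS1 stood at 8.40 ± 0.880 CPM per kilobase with CAF overexpressing PAI-1 and 6.19 ± 0.533 with CAF, below HIF1A in both groups.

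Of the genes that hold HIF down, VHL rose and CITED2 fell, and the hydroxylases were not called. VHL, the substrate receptor of the ubiquitin ligase for HIF alpha, had 90.2, 92.2 and 85.5 CPM with CAF overexpressing PAI-1, against 70.6, 73.2 and 77.2 CPM with CAF, without overlap (log2 fold change 0.28, SE 0.064, adjusted p = 0.00087). CITED2, which competes with HIF alpha for the coactivators EP300 and CREBBP and is itself a HIF target, had 70.9, 73.6 and 70.2 CPM with CAF overexpressing PAI-1. With CAF it had 81.2, 87.4 and 86.2 CPM, all of them higher (log2 fold change -0.25, SE 0.063, adjusted p = 0.00274). EGLN1, the main oxygen sensor among the prolyl hydroxylases, averaged 94.2 ± 4.63 CPM with CAF overexpressing PAI-1 and 88.7 ± 3.33 CPM with CAF (SD, n = 3 each), with an interval of -0.04 to 0.21. HIF1AN averaged 121 ± 0.812 CPM with CAF overexpressing PAI-1 and 118 ± 8.70 CPM with CAF, with an interval of -0.09 to 0.16. EGLN2 averaged 8.83 ± 0.379 CPM with CAF overexpressing PAI-1 and 10.5 ± 1.43 CPM with CAF (interval -0.54 to 0.02), and 30.6% of its exon bases are shared with other annotated genes, among them the read-through gene RAB4B-EGLN2. EGLN3, a hydroxylase gene that HIF induces strongly in many cells, had only 5, 14 and 19 counts with CAF overexpressing PAI-1 and 6, 11 and 6 counts with CAF. Its interval of -0.24 to 1.81 shows that this depth cannot settle its direction.

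Genes of pH control, of the vascular peptide adrenomedullin and of the mitochondrion were higher in part. Of 6 tested members 4 rose (66.7%, where 17.2% of all tested genes rose) and none fell, where 15% of all did. ADM (ENSG00000148926, chromosome 11, 10304680 to 10307397, plus strand), which encodes adrenomedullin, had 102, 119 and 114 CPM with CAF overexpressing PAI-1. With CAF it had 66.1, 71.1 and 68.3 CPM, and the libraries were well apart. It rose 1.63-fold (log2 fold change 0.71, SE 0.066, adjusted p = 1.66e-10). CA9 (ENSG00000107159, chromosome 9, 35673856 to 35681159, plus strand), a cell-surface carbonic anhydrase and a widely used hypoxia marker, had 6.36, 7.55 and 6.98 CPM with CAF overexpressing PAI-1, against 3.82, 5.86 and 3.60 CPM with CAF. CAF replicate 2 lay close to the lowest library with CAF overexpressing PAI-1, and counts per library were between 50 and 108. CA9 rose (log2 fold change 0.65, SE 0.186, adjusted p = 0.00713), and without CAF replicate 1 the adjusted p was 0.0504, in a range of 0.00106 to 0.0504 over the libraries left out. Of its exon bases, 38.5% lie under ARHGEF39 on the other strand, and whether strand was used in counting is not given. CA12, a related carbonic anhydrase, had 10, 6 and 8 counts with CAF overexpressing PAI-1 and 9, 10 and 14 counts with CAF, too few for the test.

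FAM162A, a mitochondrial protein linked to cell death in hypoxia, had 113, 133 and 118 CPM with CAF overexpressing PAI-1, against 79.7, 91 and 91.2 CPM with CAF, and rose (log2 fold change 0.47, SE 0.068, adjusted p = 1.23e-06). AK4, an adenylate kinase of the mitochondrial matrix, rose less, to 103 ± 2.65 CPM with CAF overexpressing PAI-1, against 84.5 ± 5.85 CPM with CAF (log2 fold change 0.29, adjusted p = 0.00061). BNIP3 and BNIP3L, the receptors that mark mitochondria for autophagy and are classic HIF targets, were not called. BNIP3 had 233, 277 and 252 CPM with CAF overexpressing PAI-1, against 214, 258 and 238 CPM with CAF. The libraries of the groups interleave, and the interval of the log2 fold change was -0.03 to 0.23. BNIP3L spanned 111 to 123 CPM with CAF overexpressing PAI-1 and 95.4 to 118 CPM with CAF, with an interval of -0.06 to 0.22.

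**Figure D2:**
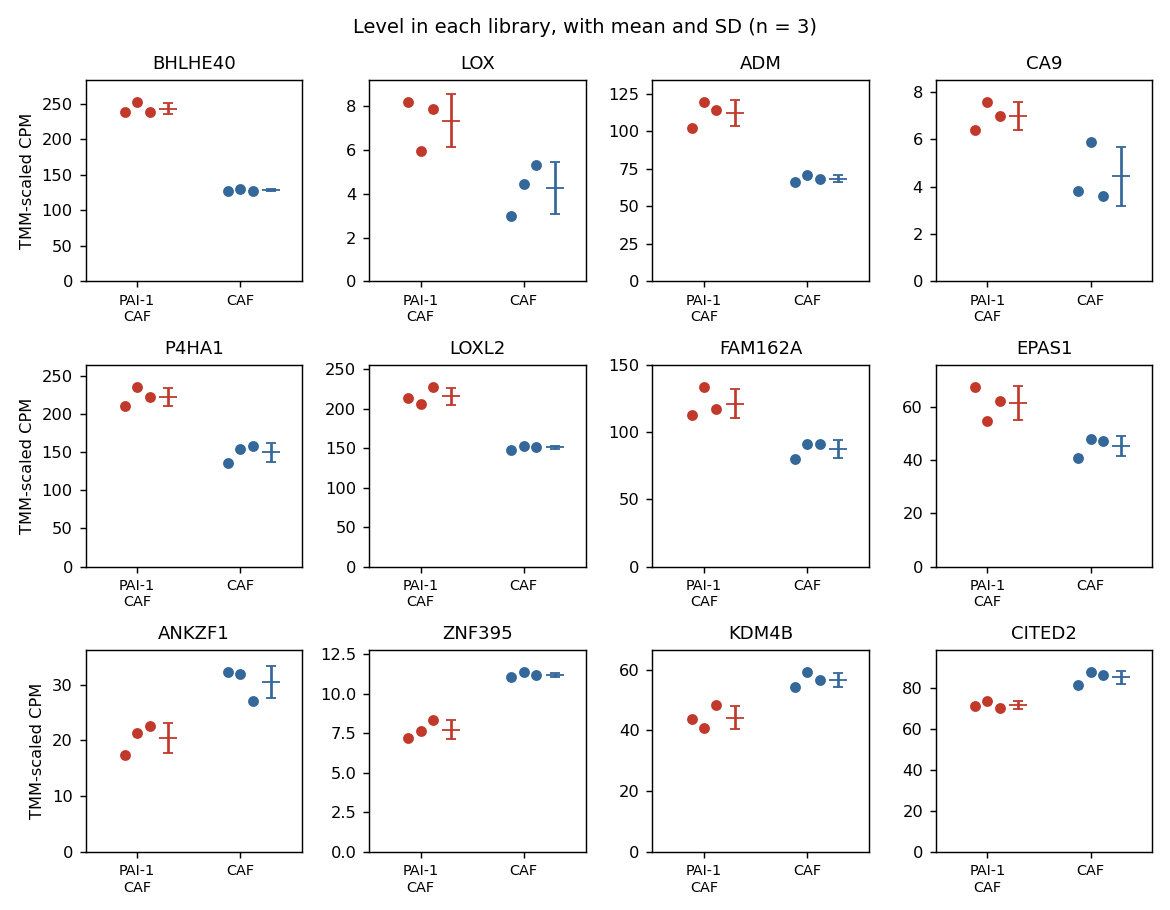
TMM-scaled CPM (y axis, from 0) in each library with CAF overexpressing PAI-1 (left) and with CAF (right), with mean and SD over 3 libraries, for the 8 called genes with the largest rises and 4 called genes with the largest falls. In every panel the 3 libraries of one group lie on one side of the 3 of the other, and the gap is narrowest in CA9 and LOX.

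All 6 collagen-modifying enzymes of the set rose, with log2 fold changes from 0.16 to 0.80, where 17.2% of all tested genes rose. LOX (ENSG00000113083, chromosome 5, 122063195 to 122078360, minus strand), a lysyl oxidase that cross-links collagen and elastin outside the cell, had 8.19, 5.96 and 7.89 CPM with CAF overexpressing PAI-1. With CAF it had 2.97, 4.47 and 5.32 CPM, a low level of 49 to 74 counts a library. The groups did not overlap, and LOX rose by 0.80 on the log2 scale (SE 0.193, adjusted p = 0.00152), or by 0.59 to 0.99 when each library was left out. LOXL2, a related oxidase, had 214, 206 and 227 CPM with CAF overexpressing PAI-1, against 148, 153 and 152 CPM with CAF, and rose by 0.51 (SE 0.056, adjusted p = 4.76e-09).

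P4HA1 (ENSG00000122884, chromosome 10, 73007217 to 73096974, minus strand), a catalytic subunit of collagen prolyl 4-hydroxylase, had 211, 235 and 222 CPM with CAF overexpressing PAI-1, against 136, 154 and 158 CPM with CAF. The lowest library with CAF overexpressing PAI-1 was above the highest with CAF, and P4HA1 rose 1.49-fold (log2 fold change 0.57, SE 0.061, adjusted p = 3.22e-09). P4HA2, the other such subunit in the set, averaged 110.5 ± 9.17 CPM with CAF overexpressing PAI-1 and 85.7 ± 5.72 CPM with CAF (SD, n = 3 each), a rise of 0.37 (adjusted p = 5.24e-05). PLOD2, a lysyl hydroxylase of collagen telopeptides, spanned 404 to 451 CPM with CAF overexpressing PAI-1 and 307 to 369 CPM with CAF, a rise of 0.31 (adjusted p = 0.000146). PLOD1, the lysyl hydroxylase of the collagen helix, had 543, 474 and 549 CPM with CAF overexpressing PAI-1, against 455, 475 and 473 CPM with CAF. PAI-1 replicate 2 lay within the range of the CAF libraries. The rise of PLOD1 was the weakest of the 6 (log2 fold change 0.16, adjusted p = 0.0281). It was not called when PAI-1 replicate 1 or 3 was left out (adjusted p = 0.107 and 0.169), nor without CAF replicate 1, 2 or 3 (0.110, 0.0610 and 0.0697), and it had 0.000127 without PAI-1 replicate 2. With library size alone its log2 fold change was 0.09 (adjusted p = 0.207).

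Fibroblasts express all these enzymes, so the fibroblast markers belong beside them. The 14 markers summed to 302 to 330.1 CPM with CAF overexpressing PAI-1 and 224 to 262.5 CPM with CAF, and 1 rose, COL1A1, 1 fell, FBN1, and 9 were under 1 CPM in every library. COL1A1 averaged 257 ± 16.5 CPM with CAF overexpressing PAI-1 and 186 ± 19.9 CPM with CAF (SD, n = 3 each), and made up most of the sum. The 7 most specific to fibroblasts, among them COL1A2, DCN, LUM and PDGFRB, had 9 counts in all with CAF overexpressing PAI-1 and 13 with CAF. PDGFRA, FAP and POSTN were at 0 in all libraries with CAF overexpressing PAI-1, and DCN in all libraries with CAF.

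Genes of transcription and chromatin went both ways, with 1 of 6 risen and 3 fallen. These are 16.7% and 50%, where 17.2% of all tested genes rose and 15% fell. BHLHE40 (ENSG00000134107, chromosome 3, 4979116 to 4985323, plus strand), also called DEC1, a repressor that binds E-boxes and is induced by hypoxia and many other stimuli, had the largest called rise of the set. It had 238, 252 and 239 CPM with CAF overexpressing PAI-1, against 128, 131 and 127 CPM with CAF. The spread within a group was a few CPM and the difference over 100, and BHLHE40 rose by 0.92 on the log2 scale (SE 0.055, adjusted p = 3.54e-15), or by 0.89 to 0.93 when each library was left out. BHLHE41, or DEC2, its close relative, had 33.4, 34.1 and 29.9 CPM with CAF overexpressing PAI-1 and 36, 37.4 and 42 CPM with CAF. It fell (log2 fold change -0.24, SE 0.084, adjusted p = 0.0244), but not without PAI-1 replicate 3 (0.154) or CAF replicate 3 (0.175), in a range of 0.00897 to 0.175 over the libraries left out.

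Of the 3 histone lysine demethylases of the set, oxygen-dependent enzymes, 1 was called, where 32.2% of all tested genes were. KDM4B (ENSG00000127663, chromosome 19, 4969113 to 5153595, plus strand) had 43.7, 40.7 and 48.4 CPM with CAF overexpressing PAI-1, against 54.3, 59.2 and 56.6 CPM with CAF, and fell (log2 fold change -0.35, SE 0.075, adjusted p = 0.000348). KDM4C had 14.6, 13.9 and 12.8 CPM with CAF overexpressing PAI-1 and 16.2, 16.8 and 16.3 CPM with CAF. These did not overlap, and the log2 fold change of -0.26 missed the threshold (adjusted p = 0.0756). KDM3A had 96.5, 93.3 and 103 CPM with CAF overexpressing PAI-1 and 90.5, 86.1 and 90 CPM with CAF, again without overlap and not called (log2 fold change 0.14, adjusted p = 0.0916). Without PAI-1 replicate 2 KDM3A passed (0.0349, in a range of 0.0349 to 0.345 over the libraries left out). ZNF395, a zinc finger transcription factor, had 7.18, 7.63 and 8.34 CPM with CAF overexpressing PAI-1, against 11, 11.3 and 11.1 CPM with CAF, and fell (log2 fold change -0.53, SE 0.136, adjusted p = 0.00248). FBXO16 shares 34.9% of the exon bases of ZNF395 on the same strand, so reads of the pair may not be separable.

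Of the other targets, NDRG1 rose and ANKZF1 fell. NDRG1, a stress-responsive gene long used as a hypoxia marker, had 121, 133 and 131 CPM with CAF overexpressing PAI-1, against 96.5, 109.6 and 106 CPM with CAF (log2 fold change 0.30, SE 0.062, adjusted p = 0.000238). ANKZF1 (ENSG00000163516, chromosome 2, 219229757 to 219236669, plus strand), which acts in the clearance of stalled ribosomes, had 17.5, 21.3 and 22.6 CPM with CAF overexpressing PAI-1. With CAF it had 32.2, 32 and 27.1 CPM, and the log2 fold change of -0.58 was the largest called fall of the set (SE 0.101, adjusted p = 3.13e-05). WSB1, a substrate receptor of a ubiquitin ligase, averaged 109 ± 7.39 CPM with CAF overexpressing PAI-1 and 117 ± 6.07 CPM with CAF (SD, n = 3 each), with an interval of -0.22 to 0.03. ANKRD37, an ankyrin repeat gene, had 27, 47 and 30 counts with CAF overexpressing PAI-1 and 33, 31 and 16 counts with CAF. Its interval of -0.17 to 1.10 is wide, and 35.2% of its exon bases lie under UFSP2 on the other strand.

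Levels per exon length differed far more between these genes than between the groups. PLOD1 was the most abundant in both groups, with 98.1 ± 7.79 CPM per kilobase with CAF overexpressing PAI-1 and 87.8 ± 2.07 with CAF. P4HA1 followed in both, at 71.9 ± 3.93 with CAF overexpressing PAI-1 and 48.3 ± 3.88 with CAF. BHLHE40 came next with CAF overexpressing PAI-1, at 63.3 ± 2.07, while with CAF it stood at 33.5 ± 0.487, where it did not differ beyond the spread from CITED2 at 33.5 ± 1.30 (all SD, n = 3). LOX, ANKRD37, CA12 and EGLN3 were the 4 lowest in both groups. Only EGLN3 and CA12 averaged under 1 CPM in both groups, and 25 of the 32 averaged at least 10 CPM in both.

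**Figure D3:**
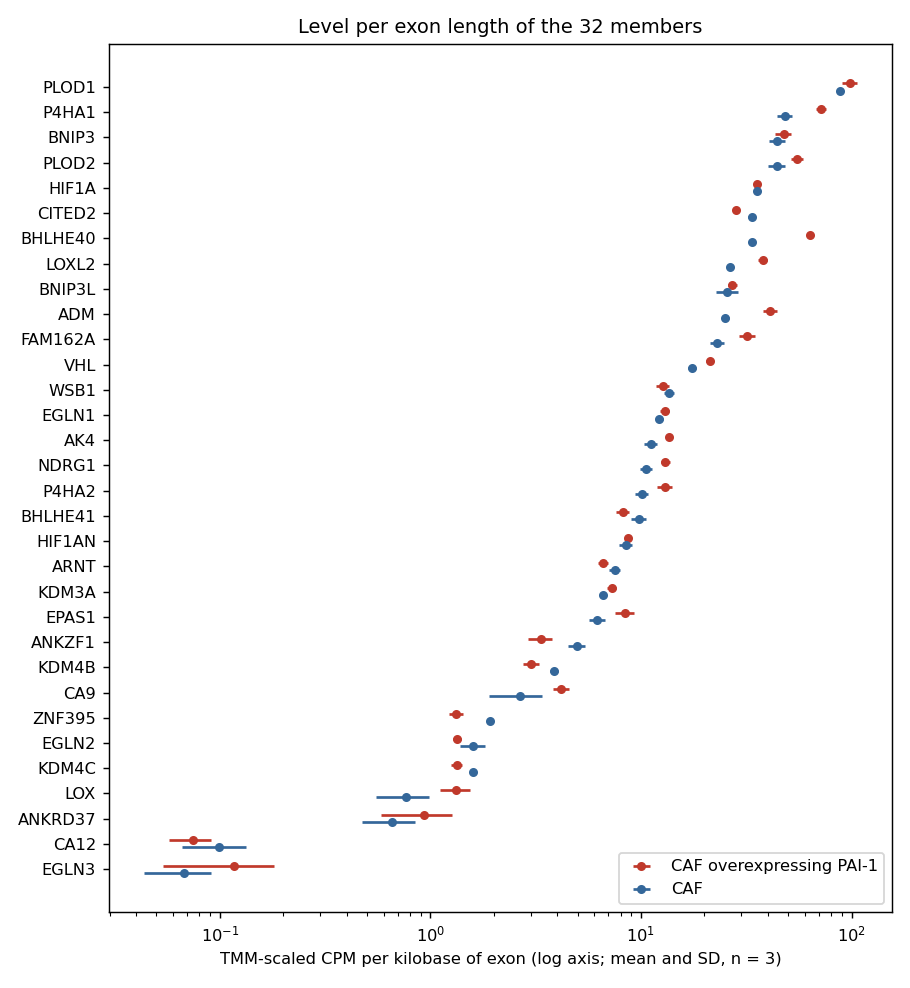
Mean TMM-scaled CPM per kilobase of merged exon (x axis, log scale) with SD over 3 libraries, for all 32 HIF genes, ordered by the level with CAF. BHLHE40, at 63.3 with CAF overexpressing PAI-1 and 33.5 with CAF, has the widest gap between the groups.

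Other genes of the pathway, taken from lists made for this comparison, were counted in the same test. Members and lists were both chosen with earlier results of these data known, so their shares are not independent of those results. Among 18 tested regulators of HIF, 5 rose and 3 fell (27.8% and 16.7%, where 17.2% and 15% of all tested genes did), with a median log2 fold change of 0.07. Without PAI-1 replicate 2 the numbers were 4 and 3. The chaperone genes HSP90AB1 and HSP90AA1, whose product stabilizes HIF1A, rose by 0.38 and 0.32. MDM2, a ubiquitin ligase best known for p53, and EP300, a coactivator bound by HIF alpha, fell, with log2 fold changes of -0.50 and -0.40. EP300 averaged 146 ± 18.2 CPM with CAF overexpressing PAI-1 and 192 ± 6.50 CPM with CAF (SD, n = 3 each). HIF3A, ARNT2 and CITED1 were too low for the test.

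Among 26 HIF targets of glucose metabolism 15 rose and none fell (57.7% risen, where 17.2% of all tested genes rose), with a median log2 fold change of 0.22, and 16 rose without PAI-1 replicate 2. PFKFB3, which makes an activator of glycolysis, rose by 0.89 on the log2 scale, with 36.6 ± 2.26 CPM with CAF overexpressing PAI-1 and 19.8 ± 0.928 CPM with CAF, and GPI, a glycolytic isomerase, rose by 0.45. Among 27 tested targets of other kinds, many of them secreted, 17 rose and 3 fell (63.0% and 11.1%, beside the same 17.2% and 15%), with a median of 0.44. Without PAI-1 replicate 2 the numbers were 16 and 3. ANGPTL4, a secreted inhibitor of lipoprotein lipase, and HMOX1, the haem oxygenase, rose, with log2 fold changes of 2.14 and 1.85. HILPDA, a lipid droplet protein, and KDM4A, a relative of KDM4B, fell, with log2 fold changes of -0.61 and -0.36, though 48.5% of the exon bases of KDM4A are shared with other annotated genes. The erythropoietin gene EPO and CXCR4 and TF were too low for the test.

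Among 10 relatives and partners of the collagen-modifying members, 2 rose and 1 fell (20% and 10%, where 17.2% and 15% of all tested genes did), with a median of 0.08. Without PAI-1 replicate 2, 3 rose and 1 fell. P4HB, the partner subunit of P4HA1 and P4HA2, rose by 0.38 (adjusted p = 4.26e-07) and SERPINH1, a collagen chaperone, by 0.33 (adjusted p = 5.02e-05). CRTAP, part of the prolyl 3-hydroxylase complex, fell (log2 fold change -0.19, adjusted p = 0.00813). PLOD3, LOXL1, LOXL3, LOXL4, P4HA3, P3H1 and COLGALT1 were not called. These lists share their test with the members and were not tested as sets.

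**Figure D4:**
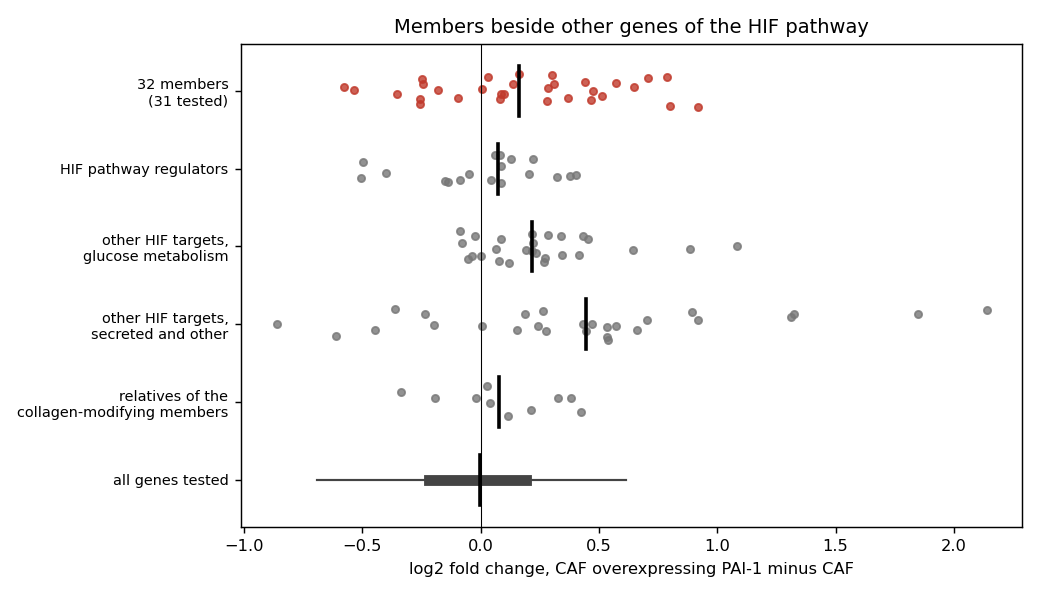
Log2 fold change (CAF overexpressing PAI-1 minus CAF, x axis) of the tested members and of 4 lists of other HIF-pathway genes, a point per gene and a black bar at the median. For all 14960 tested genes the thick bar spans the interquartile range and the thin line the 5th to 95th percentile. The medians are 0.16 for the members, 0.07 for regulators, 0.22 for glucose metabolism, 0.44 for secreted and other targets, 0.08 for collagen enzyme relatives and -0.0015 for all genes.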

How the data were processed

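RNA sequencing counts of 6 libraries were analysed, 3 of Panc-1 co-cultured with CAF overexpressing PAI-1 and 3 with CAF. The authors deposited whole-number counts per gene, with 0 columns of sample values left aside. BWA, Bowtie2, RSEM and hg19 appear in the submitters' processing notes, without roles or versions. Which step gave whole counts, and whether strand was used, are not stated there. The extraction protocol in the labels speaks of another line, Cal27, while the other labels name Panc-1. Of 7 squamous markers that Cal27 would bring, 6 were under 1 CPM in every library and 1, SFN, rose. SFN averaged 142 ± 12.9 CPM with CAF overexpressing PAI-1 and 86.1 ± 4.56 CPM with CAF (SD, n = 3 each). Which cells its reads came from was not tested. The 58735 gene identifiers are those of GENCODE 29. Its GRCh38 coordinates identify genes and give the shares of exon bases, and its merged exon lengths scale the levels per kilobase. Neither entered the test.

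Genes were filtered with filterByExpr (minimum count 10, minimum total 15), scaled by TMM and tested with robust quasi-likelihood fits in edgeR 4.0.16 (R 4.3.3) without covariates, with Benjamini-Hochberg adjustment over 14960 genes. Each standard error is the unshrunken log2 fold change over the root of F. Intervals are 95%, from the t distribution, and are not adjusted. The test was checked on simulated counts. Replicates of a group differed beyond sampling noise (chi-square per degree of freedom 2.58 to 9.51). The labels call the libraries biological replicates but tie none to a separate experiment, so p-values speak only of the spread among the 6 libraries. Floors of 3 counts cover counting error only.

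Members and lists were chosen with earlier results of these data known. The rule for values in every library took the 8 largest called rises and 4 largest called falls. From each other list, up to 2 called genes per direction with the smallest p were named. Library values of further members, and genes named otherwise, were added after their values were seen. Results were recomputed with DESeq2 1.42.0, limma-voom (limma 3.58.1), RLE or library-size scaling, no filter or a mean of at least 10 CPM, non-robust estimation, glmTreat against 1.2-fold, a replicate block, and after leaving out any 1 library. Some results are not reported here.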

Additional observations from a re-analysis of the deposited data

How the results depend on the processing

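Over 15 alternatives, 8 of the 19 called members kept call and direction in each one that tested them. They are BHLHE40, ADM, P4HA1, LOXL2, FAM162A, EPAS1, LOX and ANKZF1, the same 8 that glmTreat called. AK4, CITED2, KDM4B, NDRG1, P4HA2, PLOD2, VHL and ZNF395 lost the call in 1 alternative only, glmTreat. CA9 lost it in 2 alternatives, BHLHE41 in 3 and PLOD1 in 8. Of 458 values for single members, 429 kept their side of the threshold, and none of the called ones changed sign. Among uncalled members, HIF1A, HIF1AN and BNIP3L changed sign in some alternatives, and these values are within the 429. RLE scaling, DESeq2, limma-voom, no filter and no robust estimation each gave 14 members higher and 5 lower. With a mean of at least 10 CPM there were 25 members tested, 11 higher and 6 lower. The shares of all genes called under that filter are not given here, so these 2 counts stand without their background. Library size alone gave 8 members lower, with ARNT, KDM4C and WSB1 added, and 5 lower among the secreted and other targets. GlmTreat, which asks for more than a 1.2-fold change, gave 7 members higher and 1 lower, and 1611 genes in all. In the lists it gave 1 regulator higher, 6 glucose genes higher and 1 secreted or other target lower. Among the collagen enzyme relatives it gave 1 higher and 0 lower. Its numbers of regulators lower and of secreted or other targets higher are not given here. With 1 library left out, 12 to 15 members were higher and 4 to 6 lower, and 3942 to 4673 genes changed in all. Deviations of same-numbered libraries correlated at 0.0036, 0.036 and 0.0056 across genes, and those of differently numbered ones at -0.024 to 0.020. Not every library correlated best with its own number. With 3 libraries a group, such values cannot show whether same-numbered libraries were handled together. The replicate number as a block gave 14 members higher and 6 lower, and 5069 genes in all, ARNT being the added one. Depth limits EGLN3, CA12 and ANKRD37, with 5 to 47 counts a library.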
